A study of Homo sapiens with 29 samples.

Results

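The 127 genes described here encode enzymes and adaptors of the ubiquitin system, and they were chosen by symbol alone. The rule took GENCODE symbols that start with USP, UBE2, UBE3, UBE4, UBR, FBXO, FBXL, FBXW, TRIM, RNF, CUL, HERC, KLHL, HECW, HECTD or OTUD, and it left out USP6NL, which is not a protease. It found 127 of the 4592 genes that the deposited DRB/TTchem-seq tables list. The 3 genes that served to check the symbols, USP7, USP24 and CUL3, were all among them. No measured value entered the rule, but the set was chosen with earlier results of these data known.

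Ubiquitin is a small protein that cells attach to other proteins, most often to mark them for the proteasome. An E1 enzyme activates it, an E2 enzyme carries it, and an E3 ligase places it on the substrate. HECT ligases take the ubiquitin over themselves, RING ligases, which include most RNF and TRIM proteins, bring the loaded E2 to the substrate, and cullin-RING ligases do so through exchangeable receptors, among them the F-box and KLHL proteins. Deubiquitinases of the USP and OTUD families remove it again.

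The libraries came from HEK293 cells, a human embryonic kidney line, infected for 4 days with lentivirus carrying a control hairpin (shCtrl) or a hairpin against THOC5 (shTHOC5), a subunit of the THO complex that accompanies RNA polymerase II. All cells were held in 100 μM DRB for 3.5 h, which stops the polymerase near promoters, and were then washed. They were given 1 mM 4SU, a uridine analogue that marks new RNA. Per the paper, the time of labelling with 4SU was 10 min throughout. Marked RNA was sequenced 10, 20, 30 and 40 min after the release, with 1 library for each hairpin and time, so 8 libraries in all and no replicates. Without replicates no difference below has a test or an error between cultures, and the values describe these libraries. The tables do not list THOC5, and its level in these cells was not measured here.

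For each gene and library the tables give a wave peak, the position where the signal of the released polymerases was called, inside a window from 2 kb before to 120 kb after the transcription start site (TSS). They also give 1 coverage value for each gene and series, in rpm (reads scaled to a sum of 1000000 over the listed genes) in that window, and 1 rate in kb/min, the slope through the 4 wave peaks and a point at the start of the window at 0 min. Because every window has the same length, coverage can be compared between genes, but it is a share. A higher share of a gene and a lower share of the others cannot be told apart, and neither can fewer cells and less RNA per cell. The number of reads behind each value is unknown. Genes narrower than 120 kb have windows that run into their surroundings, and this was the case for 59 of the 93 members with at least 100 rpm in both series.

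Promoters of 3 members are shown because their wave peaks stood for the 3 kinds of behaviour found below. In UBE2L3 the peak lay farther inside the gene at each later time in both series. In UBR4 it was called at the first position of the window in all 4 shTHOC5 libraries. In UBE2E1 it lay beyond the gene in all 8 libraries. Each promoter is the 250 bases in front of the RefSeq start, which coincided with the TSS of the window. It is taken from GRCh38.p14 and read 5′ to 3′ on the strand of the gene. Capitals mark the GC box letters GGGCGG or CCGCCC, the sequence on which SP1-type factors are known to sit, searched on both strands. The regions are chr22:21549197-21549446 on the plus strand for UBE2L3, chr1:19210267-19210516 on the minus strand for UBR4 and chr3:23805705-23805954 on the plus strand for UBE2E1.
UBE2L3: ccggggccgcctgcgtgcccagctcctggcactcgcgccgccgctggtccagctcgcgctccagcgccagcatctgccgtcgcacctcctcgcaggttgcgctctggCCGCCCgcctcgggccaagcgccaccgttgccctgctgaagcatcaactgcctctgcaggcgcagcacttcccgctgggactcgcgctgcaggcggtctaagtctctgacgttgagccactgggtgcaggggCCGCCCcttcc
UBR4: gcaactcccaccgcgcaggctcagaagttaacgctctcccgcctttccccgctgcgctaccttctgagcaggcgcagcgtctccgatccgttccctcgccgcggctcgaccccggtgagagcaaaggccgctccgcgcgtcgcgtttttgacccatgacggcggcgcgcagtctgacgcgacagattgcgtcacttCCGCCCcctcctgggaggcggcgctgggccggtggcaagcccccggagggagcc
UBE2E1: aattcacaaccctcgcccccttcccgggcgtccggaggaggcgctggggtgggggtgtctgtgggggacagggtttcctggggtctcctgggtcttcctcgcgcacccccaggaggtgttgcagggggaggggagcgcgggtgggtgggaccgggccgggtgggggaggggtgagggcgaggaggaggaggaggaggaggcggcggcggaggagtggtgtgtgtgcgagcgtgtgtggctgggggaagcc
UBE2L3 held 2 such boxes, UBR4 held 1 and UBE2E1 held 0. Of the members with at least 100 rpm in both series, 58 had a RefSeq promoter within 100 bases of the window TSS, and 46 of these (79.3%) held a GC box, against 42.6% of all 35116 promoters in the table. The letters TATAAA were in 0 of the 58 and in 6.8% of all promoters. The matched members had a median of 26 CpG dinucleotides in the 250 bases, and all promoters had a median of 11. The 3 promoters shown held 26, 33 and 17. The set of all 35116 promoters was not limited to the listed genes or by coverage. The same values over all genes with 100 rpm were not taken, so nothing particular to ubiquitin genes is read from these.

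The ubiquitin genes had more coverage than the listed genes as a whole. Median coverage was 229 rpm in shCtrl and 270 rpm in shTHOC5 over the 127 members, and 110 rpm and 132 rpm over the 4592 listed genes. At least 100 rpm was reached in both series by 93 members (73.2%) and by 50.0% of the listed genes. A further 7 members, FBXL2, FBXO16, FBXO25, HERC6, KLHL2, RNF217 and USP12, reached it in 1 series only, and 27 stayed under it in both. Members were about as wide as the others, with a median of 105 kb and a range of 63.6 to 284 kb, against a median of 108 kb. Values below refer to the 93 members unless stated.

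Between the series, coverage of the set was nearly level. The median log2 ratio of shTHOC5 over shCtrl was 0.10 over the 93 members and 0.02 over all 2298 genes that reached 100 rpm in both. Coverage was higher in shTHOC5 by any amount for 57 members (61.3%, against 51%). It was more than 1.5 times higher for 15 members (16.1%), against 13.7% of all these genes. For 3 members it was more than 1.5 times lower (3.23%), against 10.4%. In the 34 members of at least 120 kb, whose windows do not run past the gene end, 7 were higher (20.6%, against 16.5% of all such genes) and 1 was lower (2.94%, against 10.5%), so lower members were few in these windows too.

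**Figure D1:**
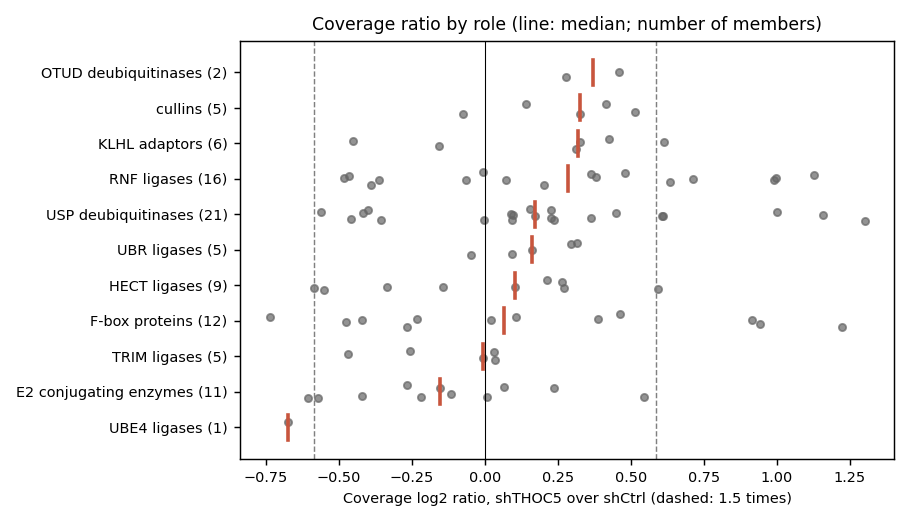
Coverage log2 ratio, shTHOC5 over shCtrl, of the 93 members with at least 100 rpm in both series (x axis), by role (y axis, number of members in parentheses). Each point is 1 gene, red lines are medians, and dashed lines mark 1.5 times. The E2 enzymes have a median of -0.15 and the RNF ligases one of 0.28.

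Wave peaks moved away from the TSS with time in more members after THOC5 depletion than in control cells. All 4 wave peaks stood in order, each farther than the one before, in 21 of the 95 members with at least 100 rpm in shCtrl (22.1%, against 19.7% of all genes at that level). In shTHOC5 this held for 50 of 98 members (51.0%, against 43.4%). Of the 93 members, 18 were in order in both series (19.4%, against 15.6% of all genes), 29 in shTHOC5 only (31.2%, against 28.1%), 3 in shCtrl only (3.23%, against 4.79%) and 43 in neither (46.2%, against 51.5%). Those in shCtrl only included OTUD7B and RNF6. Order was thus more frequent in shTHOC5 both in the ubiquitin set and in the listed genes.

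The place of the wave peak differed most at 10 min. At that time the peak was called at the first position of the window, 2 kb before the TSS, for 32 members in shCtrl (34.4%, against 36.3% of all genes) and for 53 in shTHOC5 (57.0%, against 54.2%). At 20 min it was there for 25 members in each series (26.9%, against 25.5% and 28.2% of all genes). At 30 min it was there for 17 members in shCtrl and 15 in shTHOC5 (18.3% and 16.1%, against 15.5% and 18.9%). By 40 min it was there for 9 and 8 members (9.68% and 8.6%, against 11.7% and 11.4%). Peaks in the first 20 kb of the gene grew over the same times from 28 to 43 members in shCtrl (30.1% to 46.2%, against 22.8% to 44.9% of all genes) and from 9 to 54 in shTHOC5 (9.68% to 58.1%, against 15.8% to 50%). Peaks at 20 kb or more inside the gene were more numerous in shCtrl at 40 min, with 23 members (24.7%, against 21.4% of all genes) and 15 in shTHOC5 (16.1%, against 17.7%).

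**Figure D2:**
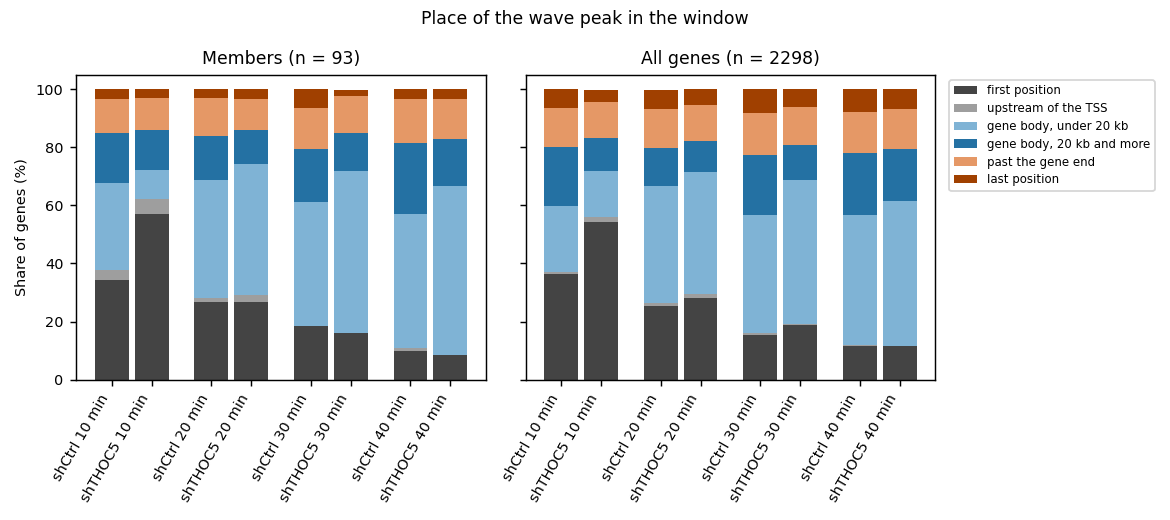
Share of genes in percent (y axis) by place of the wave peak in each of the 8 libraries (x axis), for the 93 members (left) and all 2298 genes above the same level (right). The first position holds 34.4% of members in shCtrl and 57.0% in shTHOC5 at 10 min, and 9.68% and 8.6% at 40 min.

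E2 enzymes carry the activated ubiquitin, and they were the role with the highest median coverage in shCtrl. Of 12 listed, 11 had at least 100 rpm in both series, with a median of 652 rpm in shCtrl and 526 rpm in shTHOC5. Their wave peaks were in order for 5 in shCtrl and for 10 in shTHOC5 (against 20.4% and 43.7% of all genes). At 20, 30 and 40 min the peak lay nearer the TSS in shTHOC5 for 9 of the 11 and farther for 2. Nearer peaks were found at these times for 50.7%, 57.8% and 53.4% of all genes, and farther ones for 24.5%, 25.6% and 32.9%. Coverage was lower in shTHOC5 for 7 E2 genes and higher for 4, where 51% of all genes were higher.

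UBE2L3 (UBCH7, ENSG00000185651, chr22:21549447-21624034, 74.6 kb wide), which works with HECT and RBR ligases, had the highest coverage of all 127 members in shCtrl. It had 1485 rpm in shCtrl and 999.6 rpm in shTHOC5, a log2 ratio of -0.57. Its wave peak stood at 23.7, 27.2, 53.1 and 53.4 kb from the TSS in shCtrl at the 4 times. In shTHOC5 it stood at 21.7, 23.8, 25.3 and 52.7 kb. The step of over 25 kb to the second stretch came between 20 and 30 min in shCtrl and between 30 and 40 min in shTHOC5, and the rates were 1.40 and 1.13 kb/min.

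UBE2D2 (ENSG00000131508, chr5:139526431-139628434), of the UBCH5 family that serves many RING ligases, gave evenly spaced waves far inside the gene. The wave peaks were at 38.0, 41.1, 42.9 and 45.2 kb in shCtrl and at 37.0, 38.9, 40.6 and 42.1 kb in shTHOC5. The shTHOC5 peak was nearer the TSS at all 4 times, by 3.14 kb at 40 min (a difference of -3.14 kb), and the rates were 0.993 and 0.918 kb/min. The 10 min peaks already lay at 38.0 and 37.0 kb, and that distance enters the rates. Its paralog UBE2D3 was in order in shTHOC5 only, with peaks at 44.6, 46.5, 48.6 and 50.6 kb, and at 50.7, 47.1, 50.4 and 59.2 kb in shCtrl.

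UBE2K (ENSG00000078140, chr4:39698109-39782792), an E2 that builds lysine-48 chains, had a wave close to the TSS. In shCtrl the wave stood at 7.39, 8.58, 10.0 and 10.2 kb, and in shTHOC5 at the first position, 4.21, 7.23 and 8.61 kb. Its coverage was 1386 rpm in shCtrl and 909 rpm in shTHOC5, a log2 ratio of -0.61 and 1 of the 3 members lower by more than 1.5 times. UBE2H, an E2 of the GID-type ligase, had peaks at -0.128, 4.64, 5.50 and 7.25 kb in shCtrl and at the first position, 2.02, 3.50 and 4.47 kb in shTHOC5, where its rate was 0.184 against 0.241 kb/min. The waves of these 5 E2 genes were all nearer the TSS in shTHOC5 at all 4 times.

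UBE2E3 (ENSG00000170035, chr2:180967248-181076585) had a wave inside the gene that was farther from the TSS in shTHOC5 at all 4 times. The wave stood at 17.7, 19.0, 19.0 and 19.2 kb in shCtrl and at 17.9, 19.1, 21.9 and 22.8 kb in shTHOC5. The coverage was 186 and 271 rpm. UBE2A (RAD6A), the E2 of RAD18 in DNA damage tolerance, had peaks at 84.5, 105 and, for the last 2 times, 119.999 kb in shCtrl, the last position of the window and past the end of its 116 kb gene. In shTHOC5 its peaks lay between 102 and 106 kb and were kept by the authors' filter.

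Cullins are the scaffolds of the cullin-RING ligases, and all 5 listed ones passed 100 rpm in both series. Coverage was higher in shTHOC5 for 4 of the 5 (against 51% of all genes), with a median log2 ratio of 0.32 and a highest value of 0.51. Order was found in 1 cullin in shCtrl and in 3 in shTHOC5 (against 20.4% and 43.7% of all genes).

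CUL3 (ENSG00000036257, chr2:224470150-224585397), the scaffold that binds KLHL-type receptors, was the member with the largest lead in shTHOC5 at 40 min among those in order in both series. Its peaks were at 1.88, 3.84, 7.50 and 9.38 kb in shCtrl and at 1.65, 6.77, 9.04 and 18.5 kb in shTHOC5. The difference at 40 min was 9.11 kb, and the rates were 0.284 and 0.484 kb/min, a ratio of 1.70. Coverage was 363 rpm in shCtrl and 519 rpm in shTHOC5. At 10 min the peaks of the 2 series were 0.235 kb apart (-0.235 kb), so the lead appeared from 20 min on.

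CUL1, the scaffold of the F-box ligases, was kept in shTHOC5 only, with peaks at 1.75, 6.52, 9.31 and 11.2 kb. In shCtrl 3 of its 4 peaks lay close to these, at 3.52, 8.52 and 11.0 kb, but the 30 min peak was called at 41.8 kb. Only that peak stood out of order, and the rate was 0.643 kb/min in shCtrl against 0.340 kb/min in shTHOC5. CUL5, the scaffold of the SOCS-box ligases, had all 4 shCtrl peaks at the last position, 21.1 kb beyond its own end and inside ACAT1, and CUL4B had all 4 shCtrl peaks at the first.

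F-box and KLHL proteins choose the substrates of the CUL1 and CUL3 ligases, and few of the F-box waves were in order. Of 18 listed F-box genes, 12 passed 100 rpm in both series, with 1 in order in shCtrl and 3 in shTHOC5, and 0 were kept by the filter. Of 14 listed KLHL genes, 6 passed, with 1 in order in shCtrl and 3 in shTHOC5. Over all genes 20.4% were in order in shCtrl and 43.7% in shTHOC5. The peak lay past the gene end in at least 1 library for 5 of the 12 F-box and 3 of the 6 KLHL genes. This held for 26.5% of all genes.

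FBXL20 (chr17:39252663-39402523) was in order in both series. Wave peaks were called at 2.56, 6.56, 7.13 and 30.0 kb in shCtrl and at the first position, 5.30, 6.20 and 7.43 kb in shTHOC5. The difference at 40 min was -22.5 kb, and the rates were 0.685 and 0.271 kb/min. Up to 30 min the series differed by at most -4.555 kb, at 10 min, and the gap was widest in the 40 min libraries.

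FBXO11, the F-box protein that directs BCL6 to breakdown, had 460 rpm in shCtrl and 1073 rpm in shTHOC5, a log2 ratio of 1.22 and the second largest of the set. Its window, however, ran 2.82 kb beyond the gene, and the wave peak was called at that last position, inside the oppositely oriented MSH6, in 7 of 8 libraries. FBXW7, the receptor for cyclin E and MYC, had 157 rpm in shCtrl and 302 rpm in shTHOC5. Its gene of 216 kb reaches beyond the downstream end of the window, and its peak was at the first position in all 4 shCtrl libraries and at 3.04 and 5.87 kb at 30 and 40 min in shTHOC5. FBXL5, the iron-sensing F-box protein, had 233 and 441 rpm. FBXW4 had the lowest ratio of all 93 members, with 580 rpm in shCtrl, 348 rpm in shTHOC5 and a log2 ratio of -0.74, and all 8 of its peaks lay past its end.

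KLHL8 (ENSG00000145332, chr4:87160103-87240314) was the KLHL gene in order in both series. Its peaks were at 23.4, 26.5, 26.7 and 29.5 kb in shCtrl and at 22.1, 23.5, 25.9 and 27.3 kb in shTHOC5, nearer the TSS in shTHOC5 at all 4 times. KLHL7 was kept in shTHOC5 with peaks at 78.5, 81.7, 82.7 and 83.5 kb, although its gene is 72.2 kb wide. Its rate of 1.75 kb/min in shTHOC5 and 1.74 kb/min in shCtrl therefore came from positions outside the gene, inside NUP42. KLHL23 had the highest mean coverage of the KLHL genes, 399 and 495 rpm, and all 8 of its peaks lay between 108 and 111 kb, inside SSB.

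Most RNF and TRIM proteins are RING ligases. Of 24 listed RNF genes, 16 passed 100 rpm in both series. They were in order in 3 cases in each series, against 20.4% of all genes in shCtrl and 43.7% in shTHOC5. RNF19A was the only RNF gene in order in both. Its peaks were at 28.9, 32.3, 33.6 and 36.0 kb in shCtrl and 29.7, 33.1, 34.1 and 35.2 kb in shTHOC5. RNF19A, a ligase of the RING-between-RING type, had 117 rpm in shCtrl and 233 rpm in shTHOC5. Coverage was higher in shTHOC5 by more than 1.5 times for 5 RNF genes, RNF115, RNF19A, RNF6, RNF13 and RNF111 (against 13.7% of all genes). It was lower by that much for 0 (against 10.4%).

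RNF115, a ligase of membrane traffic, had the highest coverage of the RNF genes, with 598 rpm in shCtrl and 1307 rpm in shTHOC5, a log2 ratio of 1.13. Its peak stood at the first position in 6 of 8 libraries, which is an exon of the oppositely oriented POLR3C, and at 18.2 and 20.5 kb at 20 and 30 min in shTHOC5. RNF216, another ligase of the RING-between-RING type, had waves near the TSS at 5.30, 8.26, 10.0 and 9.41 kb in shCtrl and at 1.29, 4.67, 6.76 and 8.56 kb in shTHOC5. The shTHOC5 peak was nearer at all 4 times, and the filter kept the gene in that series at 0.266 kb/min.

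Of 10 listed TRIM genes, 5 passed 100 rpm in both series, and their coverage differed by log2 ratios of -0.47 to 0.04. Order was found in 0 in shCtrl and in TRIM24 and TRIM44 in shTHOC5 (against 20.4% and 43.7% of all genes). All 5 had the 10 min peak of shTHOC5 at the first position, against 2 in shCtrl. Over all genes it was there for 54.2% in shTHOC5 and 36.3% in shCtrl. TRIM66 had the highest coverage, 509 and 368 rpm, and its peak never left the first position, which lies in an exon of the oppositely oriented ribosomal gene RPL27A.

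HECT ligases form a bond with ubiquitin before they pass it on. Of 10 listed with the prefixes UBE3, HERC and HECTD, 9 passed 100 rpm in both series. Of these, UBE3C was in order in shCtrl and 7 were in order in shTHOC5, against 20.4% and 43.7% of all genes. In all 9 the 10 min peak of shTHOC5 was at the first position, against 4 of 9 in shCtrl. Over all genes it was there for 54.2% in shTHOC5 and 36.3% in shCtrl. UBE3C (ENSG00000009335), which extends chains at the proteasome, had peaks at 1.76, 4.55, 5.66 and 6.58 kb in shCtrl and at the first position, 2.64, 4.08 and 5.93 kb in shTHOC5. UBE3A, the ligase lost in Angelman syndrome, had its peak at the first position up to 30 min and at 32.2 kb at 40 min in shCtrl, and at the first position, 1.06, 3.30 and 5.81 kb in shTHOC5. HECTD4 had 297 rpm in shCtrl and 198 rpm in shTHOC5, just inside a ratio of 1.5, with a log2 ratio of -0.58.

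UBR ligases read destabilizing protein ends. All 5 listed ones passed 100 rpm in both series. At 20, 30 and 40 min the peak was nearer the TSS in shTHOC5 in all 5, against 50.7%, 57.8% and 53.4% of all genes. The median differences of these 5 were -2.29, -2.002 and -1.62 kb. Their coverage log2 ratios lay between -0.05 and 0.32. UBR3 had peaks at 2.99, 10.4, 10.1 and 11.5 kb in shCtrl and at 0.71, 6.76, 7.88 and 8.83 kb in shTHOC5. UBR4, which had the highest coverage of the family with 534 and 516 rpm, stood apart: its peaks were at 0.412, 2.54, 4.35 and 3.48 kb in shCtrl and at the first position in all 4 shTHOC5 libraries, so the difference for this gene is the distance to the window edge. No other coding gene is annotated at that position, upstream of the promoter shown above.

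UBE4B (chr1:10032832-10181239), a ligase of the U-box type that lengthens chains, had 634 rpm in shCtrl and 397 rpm in shTHOC5, a log2 ratio of -0.68, the lowest among the members of at least 120 kb. The wave was called at 5.48, 11.0, 12.5 and 11.1 kb in shCtrl and at -1.47, 4.66, 7.24 and 9.18 kb in shTHOC5. The gap between the series was -6.94 kb at the first time and -1.89 kb at the last.

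USP proteases were the largest role, with 26 listed and 21 at 100 rpm or more in both series. Their waves were in order for 6 in shCtrl and 11 in shTHOC5 (against 20.4% and 43.7% of all genes). The peak at 40 min was nearer the TSS in shTHOC5 for 12 (against 53.4%), farther for 6 (against 32.9%) and at the same position for 3. Coverage was higher by more than 1.5 times in shTHOC5 for 5, USP53, USP47, USP25, USP15 and USP45 (against 13.7% of all genes). It was lower by that much for 0 (against 10.4%).

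USP7 (ENSG00000187555, chr16:8892097-8975328), the protease of MDM2 and p53, had 922 and 1027 rpm. Its peaks were at 17.6, 22.4, 22.5 and 119.999 kb in shCtrl and at 15.7, 20.2, 114 and 119.999 kb in shTHOC5. The gene is 83.2 kb wide, so 3 of these 8 positions, 1 in shCtrl and 2 in shTHOC5, lay beyond it, inside PMM2 and CARHSP1. Both series were kept by the filter, and the rates of 2.49 and 3.42 kb/min, the fastest of the kept members, include those positions. Up to 20 min, where both series were inside the gene, the shTHOC5 peak was the nearer one, by differences of -1.85 and -2.19 kb.

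USP24 (149 kb wide) was the member with the largest lag at 40 min among those in order in both series. Coverage was 189 rpm in shCtrl and 258 rpm in shTHOC5. The series differed most at the last time, when the peak stood at 40.6 kb in shCtrl and 9.25 kb in shTHOC5, a difference of -31.3 kb. At 20 min the shTHOC5 peak was the farther one, 2.61 kb against 1.54 kb. The rate ratio of 0.316 was the lowest of the 18 members, and as in FBXL20 the gap was widest in the 40 min libraries.

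USP10 (ENSG00000103194, chr16:84699986-84779922), a protease of p53 and of stress granule factors, was kept in both series with peaks at 7.17, 8.13, 9.78 and 9.97 kb in shCtrl and at 2.45, 8.46, 8.99 and 10.2 kb in shTHOC5. Apart from the 10 min value the series were at most -0.792 kb apart, at 30 min. USP4 (ENSG00000114316) had peaks at 3.61, 4.17, 4.28 and 7.97 kb in shCtrl and at the first position, 1.81, 4.72 and 6.02 kb in shTHOC5. USP9X, an X-linked protease of many substrates, had 936 and 1000.04 rpm and similar rates of 0.323 and 0.317 kb/min.

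USP47, a protease of DNA polymerase beta, had 191 rpm in shCtrl and 428 rpm in shTHOC5. Its log2 ratio of 1.16 was the highest among members of at least 120 kb. Its peaks were at the first position, 4.24, 6.13 and 9.38 kb in shCtrl and at 1.83, 6.21, 8.65 and 8.79 kb in shTHOC5, farther in shTHOC5 up to 30 min and nearer at 40 min. USP25 had 175 and 350 rpm and peaks between 6.41 and 12.6 kb in shCtrl and between 1.89 and 11.9 kb in shTHOC5. USP53 had the largest coverage ratio of the set, with 158 and 390 rpm and a log2 ratio of 1.30, and its peak stayed at the first position in 6 libraries, all 4 of shCtrl and the first 2 times of shTHOC5.

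OTUD7B (Cezanne, ENSG00000264522, chr1:149937812-150010726), which cuts lysine-11 chains, was kept in shCtrl with peaks at 84.7, 84.7, 85.0 and 85.0 kb, a spread of less than 1 kb over the 4 times. These positions lie past its 72.9 kb gene, inside SF3B4. In shTHOC5 the peaks were at 84.4, 2.08, 4.25 and 85.2 kb, so 2 libraries placed the wave in the gene and 2 outside it. The other member of the family, OTUD4, had all 8 peaks past its end, inside ABCE1.

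**Figure D3:**
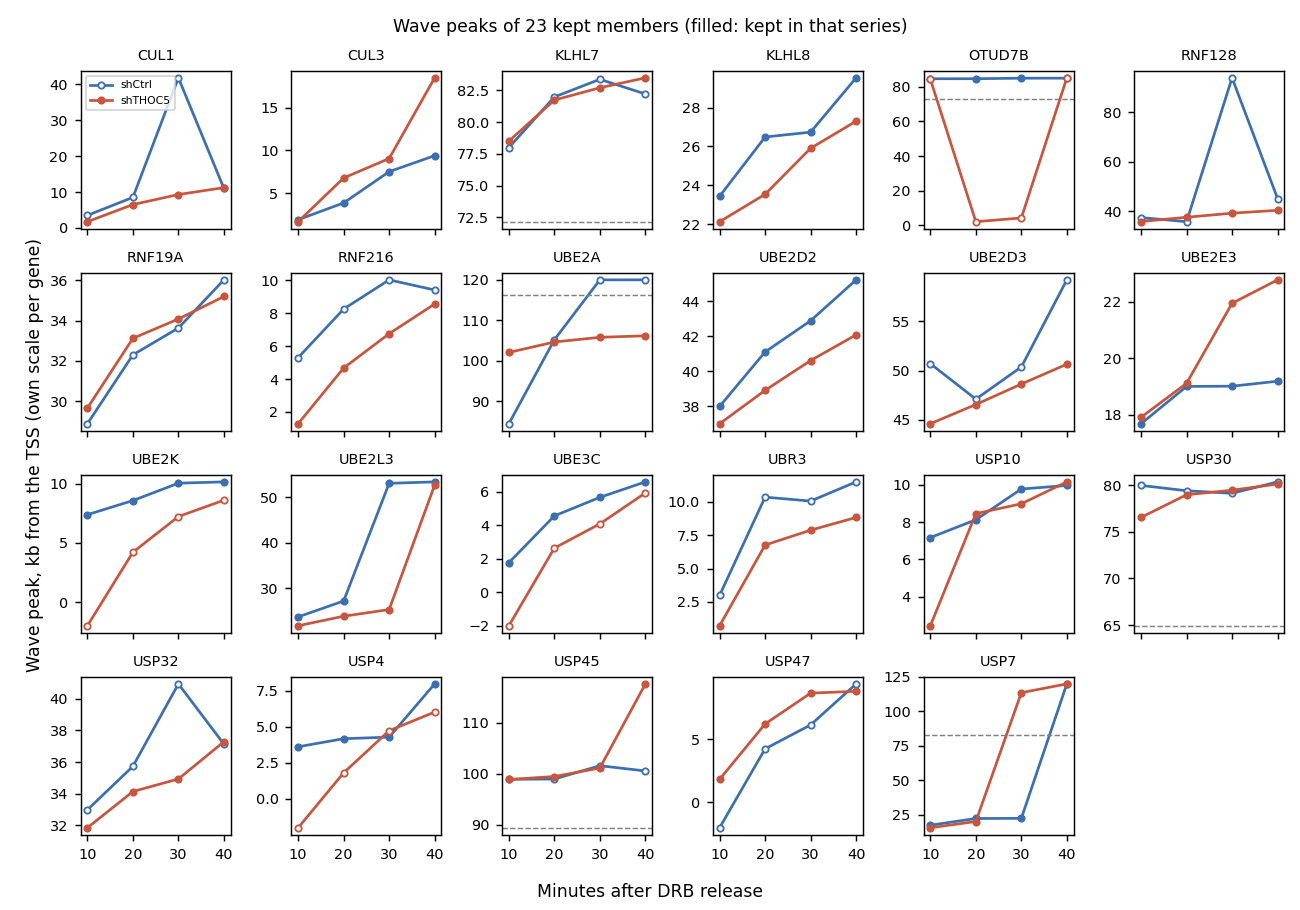
Wave peak in kb from the TSS (y axis, own scale for each gene) against minutes after DRB release (x axis) for 23 of the 24 members that the authors' filter kept in shCtrl or shTHOC5. Blue is shCtrl and red shTHOC5, filled points are the series in which the gene was kept, and dashed lines mark the annotated gene end where a peak passes it. OTUD7B, USP30, USP45, KLHL7 and USP7 have peaks above that line in a series that kept them.

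The filter kept 12 members in shCtrl (9.45%, against 4.92% of all listed genes) and 19 in shTHOC5 (15.0%, against 10.0%). Per the paper, the filter drops poorly covered genes and genes whose 10 min wave peak is under 2 kb. The point from which those 2 kb count is not stated. The members had more coverage than the listed genes, so nothing is read from these shares. Kept in both series were 7 members, UBE2L3, USP7, USP10, UBE2D2, CUL3, UBE2E3 and KLHL8. In shCtrl only, 5 were kept, among them UBE2K, OTUD7B, UBE3C and USP4, and in shTHOC5 only 12. Kept members of shCtrl had rates of 0.206 to 2.49 kb/min with a median of 0.360, and kept members of shTHOC5 had rates of 0.266 to 3.42 kb/min with a median of 0.817. These medians rest on different genes and are no comparison of the series.

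Wave peaks beyond the annotated gene end were a common feature of the narrower members. They occurred in at least 1 library for 22 of the 93 members (23.7%, against 26.5% of all genes), that is for 37.3% of the 59 members narrower than 120 kb (against 40.1%). In 9 members all 8 peaks lay there (9.68%, against 12.1%). In 21 of the 22 the positions could be placed on GRCh38, and 117 of their 118 peaks fell inside another coding gene (99.2%, against 92.8% of 3367 such peaks over all genes). These are peaks and not genes, so a member counts up to 8 times. Some peaks, as in FBXO11, RNF24 and CUL5, stood at the fixed last position of the window. Of the 118, 70 were in a gene on the same strand, 47 in a gene on the opposite strand only and 26 in an exon. The same split over all genes was not taken, so nothing is read from it.

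The 9 members whose peaks were all beyond the gene end stood in the same neighbour in nearly every library. UBE2E1, an E2 with 1338 and 1235 rpm, had its 8 peaks between 112.879 and 113.879 kb, inside the ribosomal gene RPL15 and the overlapping NKIRAS1. Its deposited rates of 2.298 kb/min in shCtrl and 2.301 kb/min in shTHOC5 describe those positions. USP30, a mitochondrial deubiquitinase, had 8 peaks between 76.5 and 80.3 kb, inside UNG, and was kept in shTHOC5. USP45 had 8 peaks in PNISR and was kept in shTHOC5 at 2.41 kb/min, with a last peak at 118 kb. On the same strand were KLHL23 in SSB and KLHL7 in NUP42. On the opposite strand were OTUD4 in ABCE1, FBXW4 in DPCD and RNF24 in PANK2. At 3 of the FBXW4 peaks POLL, on the same strand, overlapped as well. RNF212B stood in HOMEZ on the opposite strand and in BCL2L2 on the same strand. In all, 5 members were kept by the filter in a series in which at least 1 peak was past the gene end.

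At the opposite edge of the window the neighbours lay upstream. In 4 members, TRIM66, FBXO31, USP37 and USP54, all 8 peaks stood at the first position (4.3%, against 7.75% of all genes). Another coding gene overlaps that position in 3 of the 4, RPL27A, MAP1LC3B and CNOT9, each on the opposite strand, and in 128 of the 171 genes of this kind that could be placed on the genome (74.9%). Among the 37 members whose peak was never at the first position, another coding gene overlaps it in 7 (18.9%), and overall in 18.8%. The part of neighbouring transcription in these calls was not tested.

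Over the 93 members the wave peak was on the whole slightly nearer the TSS in shTHOC5. The median difference, shTHOC5 minus shCtrl, was -0.032, 0, -0.199 and -0.698 kb at the 4 times in turn. Over all 2298 genes it was 0, -0.0625, -0.748 and -0.2 kb. The peak was nearer in shTHOC5 for 47 members at 10 min (50.5%, against 49.1%), for 46 at 20 min (49.5%, against 50.7%), for 49 at 30 min (52.7%, against 57.8%) and for 56 at 40 min (60.2%, against 53.4%). It was farther for 13, 25, 33 and 29 members (14%, 26.9%, 35.5% and 31.2%, against 13%, 24.5%, 25.6% and 32.9%). Single members differed by up to -120 kb and 105 kb, since a call can move between the edges of the window.

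**Figure D4:**
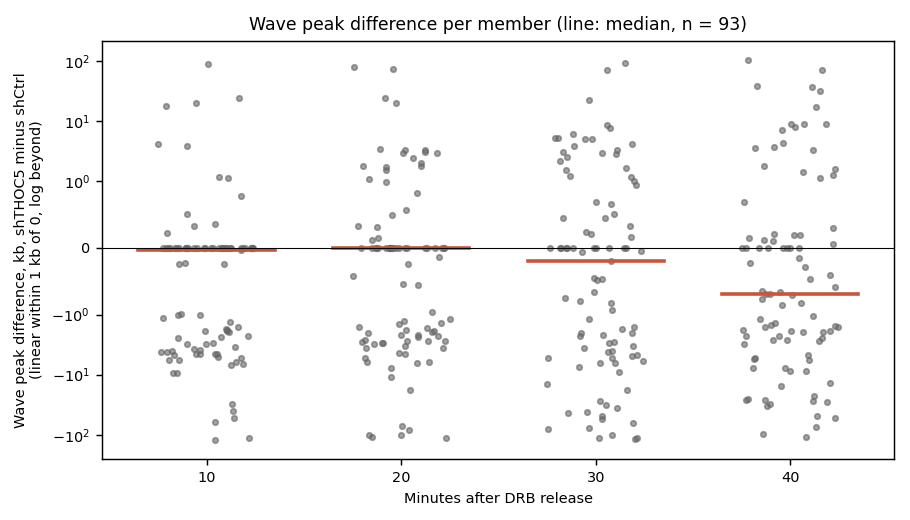
Wave peak difference in kb, shTHOC5 minus shCtrl (y axis, linear within 1 kb of 0 and logarithmic beyond), at each release time (x axis) for the 93 members. Points are genes, and red lines are medians, which lie between -0.698 and 0 kb while single genes spread to over 100 kb on either side.

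Genes whose windows stop short of the gene end gave medians farther from 0. In the 34 members of at least 120 kb the median differences were -2.07, -1.62, -1.05 and -1.11 kb at the 4 times, and over the 778 such genes they were -0.659, -0.231, -0.988 and -0.2 kb. The peak was nearer in shTHOC5 for 20, 22, 23 and 23 of the 34 (58.8%, 64.7%, 67.6% and 67.6%, against 53.3%, 52.3%, 61.7% and 53.1%). It was farther for 2, 6, 9 and 10 (5.88%, 17.6%, 26.5% and 29.4%, against 6.68%, 23.1%, 22.1% and 35.9%). Wave peaks were in order for 9 of them in shCtrl (26.5%, against 22.4%) and for 21 in shTHOC5 (61.8%, against 53.6%).

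In 21 members all peaks from 20 to 40 min lay within the first 20 kb after the TSS in both series, and these are the waves that stayed near the start of the gene. They included CUL3, FBXW8, HECTD4, HERC4, RNF216, TRIM44, UBE2H, UBE2K, UBE2O, UBE3C, UBE3D, UBE4B, UBR1, UBR2, UBR3, USP4, USP9X, USP10, USP25 and USP47. Their median peak was at 6.15, 6.88 and 9.38 kb at 20, 30 and 40 min in shCtrl and at 4.66, 6.96 and 7.83 kb in shTHOC5. The median differences at these 3 times were -2.29, -0.461 and -0.698 kb, and over the 490 genes of this kind it was -1.32, -1.05 and -0.782 kb. The peak was nearer in shTHOC5 for 17, 13 and 15 of the 21 (81.0%, 61.9% and 71.4%, against 71.0%, 69.6% and 67.1%). From 20 to 30 min the wave moved by a median of 1.11 kb in shCtrl and 1.86 kb in shTHOC5, and from 30 to 40 min by 1.22 and 1.17 kb.

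Rates were set side by side for the 18 members in order in both series, with limits. The rates of USP7 include peaks past its gene end. In UBE2D2, KLHL8 and RNF19A all 8 peaks lay more than 20 kb from the TSS and within 10 kb of each other. There the distance of the 10 min peak enters the rates along with any movement. The median ratio of shTHOC5 over shCtrl was 0.978, with quartiles of 0.920 and 1.12, and over the 359 genes of this kind it was 0.938, with quartiles of 0.741 and 1.012. The rate was lower in shTHOC5 for 10 of the 18 (55.6%, against 70.2%). USP24, FBXL20, UBE2H and UBE2L3 had the lowest ratios, 0.316, 0.395, 0.764 and 0.806. CUL3, USP7, UBE2E3 and USP10 had the highest, 1.70, 1.37, 1.23 and 1.16. A ratio above 1 did not mean that the wave was ahead: in 8 of the 18 the peak was nearer the TSS in shTHOC5 at all 4 times (44.4%, against 44.3%), and 3 of these 8, UBE2K and UBE3C among them, still had the higher rate there (37.5%, against 20.1%). In both of the named genes the shTHOC5 peak at 10 min was at the first position.

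**Figure D5:**
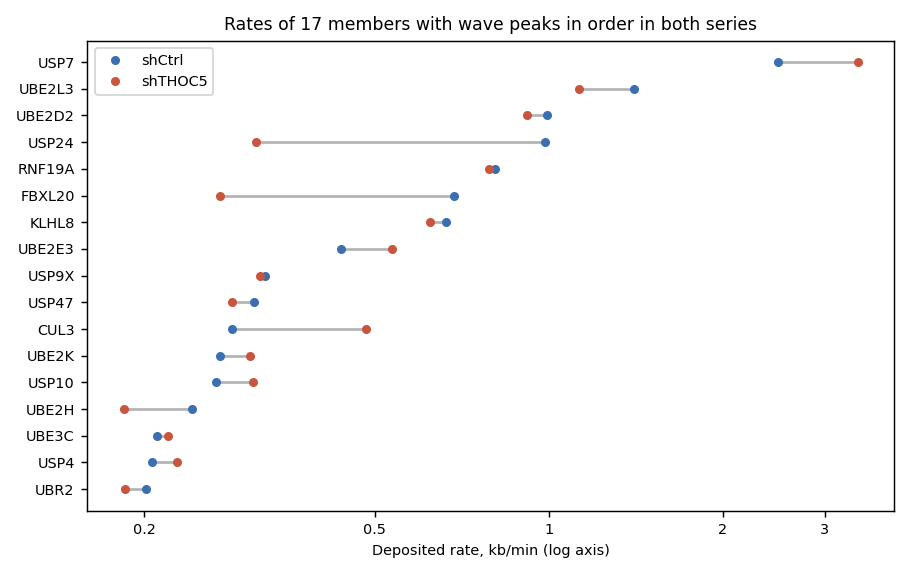
Deposited rate in kb/min (x axis, logarithmic) of 17 of the 18 members whose peaks were in order in both series (y axis), with shCtrl in blue and shTHOC5 in red. USP24 and FBXL20 lie farthest to the left in shTHOC5 relative to shCtrl, with ratios of 0.316 and 0.395, and CUL3 farthest to the right, with 1.70.

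THOC5-dependent and independent genes are classes that the study drew from the use of 3′ cleavage sites in its other libraries. Of 55 dependent and 52 independent genes with rates, 5 in each class were ubiquitin genes. The dependent ones, CUL3, KLHL8, UBE2K, USP4 and USP7, had shCtrl rates of 0.206 to 2.49 kb/min with a median of 0.284. The independent ones, which included OTUD7B, UBE2D2, UBE2L3 and UBE3C, had shCtrl rates of 0.211 to 1.74 kb/min with a median of 0.993. The ranges overlapped widely, and the highest rate of each, in USP7 and OTUD7B, included peaks outside the gene.

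Other genes of the ubiquitin pathway, which the symbol rule does not take, are given for context. Of a list of 164 E1 enzymes, further ligases, cullin partners, deubiquitinases and ubiquitin receptors, 69 were listed and 57 had at least 100 rpm in both series. Their wave peaks were in order for 13 in shCtrl (22.8%) and 32 in shTHOC5 (56.1%), where the members had 22.6% and 50.5% and all genes 20.4% and 43.7%. Their median coverage log2 ratio was 0.14. Coverage was more than 1.5 times higher for 4 and lower for 4 (7.02% each). The members had 16.1% and 3.23%, and all genes 13.7% and 10.4%. At 40 min the peak was nearer in shTHOC5 for 40 of the 57 (70.2%, where the members had 60.2% and all genes 53.4%). It was farther for 14 (24.6%, where the members had 31.2% and all genes 32.9%) and the same for 3 (5.26%). SAE1, a subunit of the SUMO E1, had 1930 rpm in shCtrl and 1068 rpm in shTHOC5. HUWE1, a large HECT ligase, was in order in shTHOC5 only, with peaks at 6.26, 5.58, 119.999 and 7.62 kb in shCtrl and at 3.30, 5.39, 7.09 and 7.73 kb in shTHOC5. NPLOC4, a cofactor of the segregase VCP, was kept in both series, with 40 min peaks of 30.0 and 16.4 kb.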

How the data were processed

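DRB/TTchem-seq tables of 8 HEK293 libraries were analysed, 1 for each hairpin (shCtrl, shTHOC5) and release time. Per the labels and the paper's methods, the authors normalized coverage to sequencing depth and called wave peaks with a published pipeline. The submitters' processing notes name CASAVA 1.8.2, Bowtie2 2.3.4.1, minimap2, deepTools 2.0 and GRCh38 without saying which served these libraries. The deposited coverage is named for RPKM, but in each series it adds up to 1000000 and was taken as RPM (rpm). The deposited wave peaks count bp from the window start, the deposited rates are in kb/min, and the authors' filter mark was used as it stands. How the coverage of a series was combined from its 4 libraries is not given in the sources used here. Depth per library is unknown, so no counting interval can be given. No columns of other series were in use.

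Each position was set relative to the TSS, 2 kb into the window, and divided into kb. The rate of every gene was refitted by least squares over 5 points and differed from the deposited one by over 0.0001 kb/min in 0 genes. Symbols, gene ends and neighbouring coding genes came from GENCODE release 44 on GRCh38, where 121 members had the deposited width. The 6 others, UBE3C, USP24, USP28, USP40, FBXL13 and RNF220, were not placed on the genome. Promoter sequences came from RefSeq (GRCh38.p14).

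Summaries used members with at least 100 rpm, and a coverage fold of 1.5 was set for calls. With 1 library per condition and time all results are counts and medians beside the same over all genes. Genes named were USP7, USP24 and CUL3, members kept in shCtrl, the 5 slowest and 5 fastest kept in shTHOC5 only, the member with most coverage in each role, the 5 highest and 5 lowest coverage ratios, and the 5 largest leads and lags at 40 min among members in order in both series. Of the members, 2 are counted but not reported here by name. Other names, such as FBXW7, UBE3A and USP9X or neighbours of wave peaks, were added after their values were seen. The members, roles and pathway list were chosen with earlier results of these data known. The functions were tested on made-up genes with known order and rates. Calculations used Python 3.11.15, numpy 2.4.6 and pandas 2.3.3, and plots used matplotlib 3.10.9.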

Additional observations from a re-analysis of the deposited data

How the results depend on the processing

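No paired analysis was possible because each hairpin and release time has a single replicate number, and the release times are conditions and not replicates. The 8 results were recomputed under 60 alternatives, of which 44 stayed within 1.5 times the count or within the 95% binomial interval of the median over genes, 13 moved further and 3 changed side. The number of members in order in shCtrl, 21, became 40 when equal neighbouring peaks counted as in order, ranged from 30 to 45 when a release time was left out (30 without 10 min, 36 without 20 min, 45 without 30 min, 38 without 40 min) and was 9 among genes of at least 120 kb. In shTHOC5 the 50 became 71 when equal neighbouring peaks counted as in order. With a release time left out it was 60 without 10 min, 58 without 20 min, 55 without 30 min and 60 without 40 min. It was 21 among those wider genes, which are fewer by construction. The median wave peak difference was larger as a mean, -4.24, -5.11, -8.78 and -3.89 kb at 10, 20, 30 and 40 min, because single calls move across the window. At 10 and 20 min it was -2.07 and -1.62 kb in genes of at least 120 kb, and at 20 min it was -1.59 kb in members in order in both series. The median rate ratio of 0.978 changed side of 1 without the 40 min time (1.014), without the F-box and KLHL genes (1.011) and in the 7 members kept in both series (1.16), so it gives no direction for the set. The alternatives with genes of at least 120 kb, and a rate ratio without members with peaks past the gene end, were chosen after seeing the data. The median coverage ratio kept its sign under all 4 of its alternatives. Unknown depth and the lack of replicates limit every value.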
